A study of Mus musculus with 10 samples.

Results

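The TGF-beta ligands, their receptors, the proteins that store them in the matrix and 2 Smad proteins of their signal were followed through articular cartilage RNA of 10 mice. The set holds 10 genes, Tgfb1, Tgfb2, Tgfb3, Tgfbr1, Tgfbr2, Tgfbr3, Ltbp1, Ltbp3, Smad3 and Smad7, taken by symbol from 35705 genes, and all 10 passed the filter on low values (a mean over all mice of 1 TPM, a transcript's share of the library scaled to a fixed total and corrected for length) that left 13841 genes to test. Each library came from the medial knee cartilage cap of a single mouse, 5 from wild-type controls and 5 from Mir324-null mice, which lack the microRNA gene Mir324. The genotype labels were not checked against a level of Mir324, which was not analysed here. No treatment was given. Age, sex, strain, litter and the way the null allele was made were not given in the sources used here. The comparison of the genotypes asked which transcripts differ in cartilage that lacks this microRNA. The labels call the cells chondrocytes, but the libraries held much RNA of other cells. Of 9 chondrocyte markers 6 reached the TPM filter, Col9a1, Matn1 and Matn3 did not, and Matn1 and Matn3 were listed at 0 in 1 and 2 mice. The 9 chondrocyte genes summed to 293 to 1070 TPM per mouse, against 54590 to 111400 TPM for 7 neutrophil genes, and haemoglobin genes took 11.2% to 26.1% of all TPM. Wild-type replicate 1 stood apart with the highest chondrocyte sum (1070 TPM, against at most 606.5 TPM in the other wild-type mice). Its haemoglobin share was the lowest, at 11.2%, but wild-type replicate 5 was close, at 11.7%. The genotype difference of each of the 10 genes is therefore also given without wild-type replicate 1. In such bulk tissue, fewer cells of a type and less RNA per cell cannot be told apart.

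TGF-beta ligands are secreted in a latent form, wrapped in their own propeptide and tied to the matrix by latent TGF-beta binding proteins. Once freed, for example by integrins or proteases, a ligand binds the type II receptor, which recruits and phosphorylates the type I receptor, and this in turn phosphorylates Smad2 and Smad3, which move to the nucleus with Smad4. Smad7 is induced by the signal and blocks the type I receptor. In joints, the pathway is known for keeping articular chondrocytes from hypertrophy, and in bone for coupling resorption, which frees stored ligand, to formation.

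The deleted microRNA gives 2 mature strands, and their sequences are shown because matches to their seeds were searched in the transcripts of the 10 genes. The seed, bases 2 to 8 from the 5′ end, is in capitals (RefSeq, GRCm38.p6, plus strand, chr11:70012060-70012082 and chr11:70012095-70012114).
miR-324-5p: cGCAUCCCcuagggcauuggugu
miR-324-3p: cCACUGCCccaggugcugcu
The DNA letters searched on the transcript strand were the reverse complements of the seeds, GGGATGC for miR-324-5p and GGCAGTG for miR-324-3p. The longest annotated 3′ UTR was searched for each gene, and GGGATGC was found in 0 of the 10 and GGCAGTG in 1 of the 10, Tgfbr1. Among 12601 protein-coding genes tested with an annotated 3′ UTR, 8.5% held GGGATGC and 15.4% held GGCAGTG. The Tgfbr1 match starts at base 2890 of a 3′ UTR of 4154 bases (GRCm38, plus strand, chr4:47413667-47413673), and it is shown in capitals within its surroundings.
Tgfbr1: tgacagctaagtGGCAGTGgaagttggcct
The base after the match was not A, so it was not the longer form of site that ends in A. The other 3′ UTRs searched ran from 135 bases in Tgfb1 to 6085 bases in Tgfbr2. A match of letters is a description and not a shown site of repression.

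Tgfb1 was by far the most abundant of the 10 genes, and levels, given here as TPM, which allows for transcript length, can be compared between genes. Over the 10 mice Tgfb1 averaged 170.7 ± 10.3 TPM (SD, n = 10), 4.37 times the mean of the next gene, Ltbp3, and lay above it in 10 of 10 mice with ranges that did not overlap. Ltbp3 followed at 39.1 ± 17.3 TPM, Tgfbr2 at 29.5 ± 5.81, Ltbp1 at 25.3 ± 4.88, Tgfbr1 at 20.3 ± 4.39, Tgfbr3 at 17.8 ± 6.53, Smad3 at 12.2 ± 2.53, Tgfb2 at 9.65 ± 5.16, Smad7 at 7.43 ± 2.18 and Tgfb3 at 5.82 ± 2.08 TPM (SD, n = 10). The Ltbp3 sum includes a mean of 17.85 TPM of Ltbp3-202, a transcript annotated as retained intron. Without that form, Ltbp3 would lie below Tgfbr2 in this order. Below Tgfb1, the ranges of every pair of neighbours in this order overlapped. Within single mice, however, Tgfbr3 lay above Smad3 in 10 of 10 and Smad7 above Tgfb3 in 10 of 10, while Tgfbr2 lay above Ltbp1 in 7 of 10 and Tgfb2 above Smad7 in 7 of 10.

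**Figure D1:**
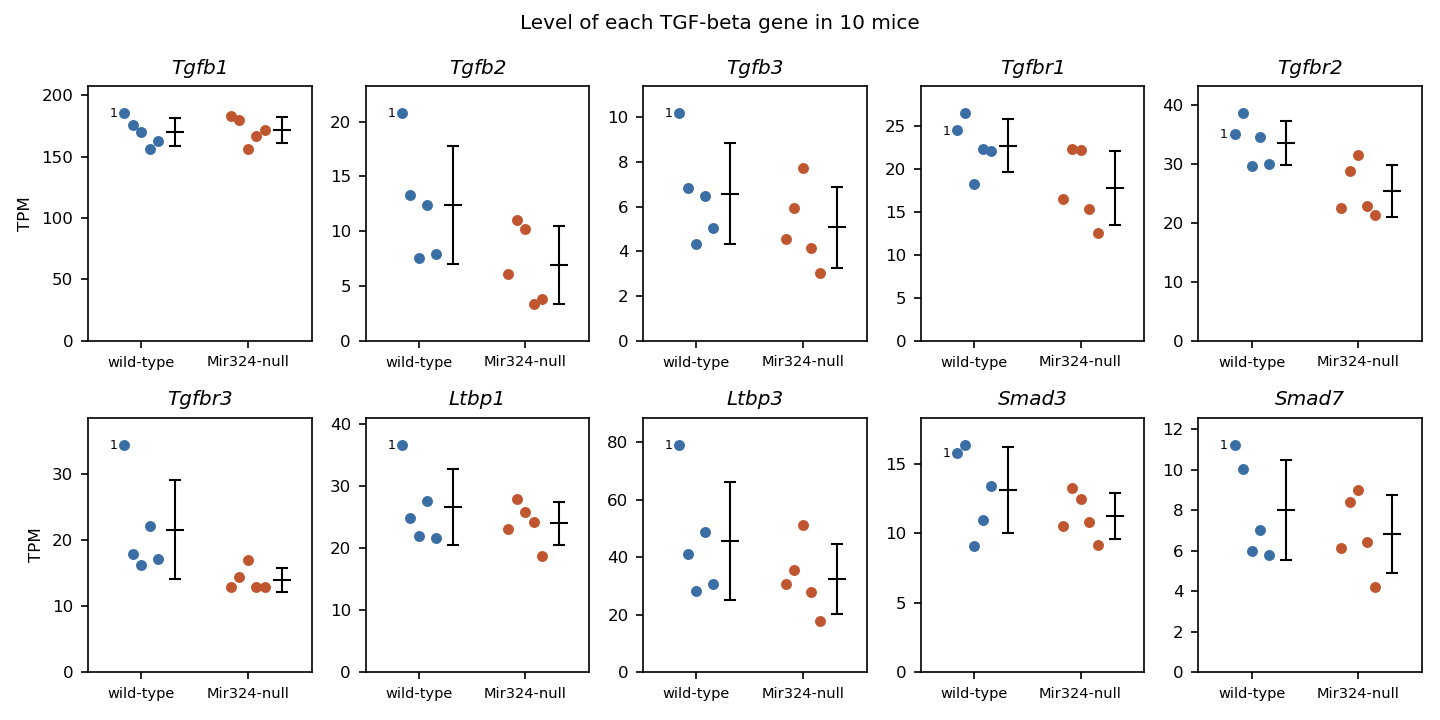
TPM (vertical axes, from 0) of the 10 genes in wild-type (blue) and Mir324-null mice (orange), a point per mouse in the order of replicate number, with the mean and SD of each group as a bar beside the points. The null mice of Tgfb1 spanned nearly the same range as the wild-type mice, the digit 1 marks wild-type replicate 1, and in each of the 10 panels the genotypes overlapped.

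Across the set, 9 of 10 genes had a lower estimate in null mice, but none passed the correction for multiple tests. Tgfb2 and the 3 receptor genes Tgfbr1, Tgfbr2 and Tgfbr3 had the 4 smallest p-values. In limma with Benjamini-Hochberg adjustment over the 13841 genes, 0 of the 10 had an adjusted p under 0.05, as did 0 of all genes (0%), and the smallest adjusted p was 0.319 in the set and 0.277 over all genes. At an unadjusted p under 0.05 there were 4 of the 10 genes, against 11.6% of all genes, and all 4 lay lower in null mice, against 7.3% of all genes that did so. The median difference of the 10 genes was -0.34 on the log2(TPM + 1) scale, beside -0.045 over all genes tested, of which 60% had an estimate below 0. On this scale the change of low genes is understated. With other scalings of the libraries, 9 of the 10 genes stayed below 0, against 49.3% of all genes after median ratio scaling, 49.2% after quantile normalization and 42.8% after rescaling without haemoglobin genes. Of the 10 genes, 4, 4 and 3 then had an unadjusted p under 0.05 and lay lower, against 6.42%, 6.71% and 4.16% of all genes. The balance of such calls over all genes moved with the scaling, from 1011 lower of 1603 to 888 of 1763, 929 of 1813 and 591 of 1819. Without wild-type replicate 1, 9 of the 10 genes were below 0 (53.9% of all genes), with a median of -0.20, and 2, Tgfbr2 and Tgfbr3, had an unadjusted p under 0.05 (8.31% of all genes). In 0 of the 10 genes did the genotypes separate fully, as they did in 1.94% of all genes. The 10 genes were chosen with earlier results of these data known, so these counts are a description and no test of the set.

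Of the ligands, Tgfb1 encodes the form that is most widespread in blood cells, platelets and bone. Its values were 185, 176, 169.8, 157 and 163 TPM in wild-type replicates 1 to 5 and 183, 179.5, 156, 167 and 172 TPM in null replicates 1 to 5. The genotypes covered nearly the same range, and the means were 170.1 ± 11.1 and 171 ± 10.6 TPM (SD, n = 5). The difference was 0.011 on the log2(TPM + 1) scale (SE 0.077, limma adjusted p = 0.977, exact permutation p = 0.849), and 0.042 without wild-type replicate 1. Tgfb1 was also among the steadiest transcripts, since its pooled SD within genotypes, 0.092 on the log2(TPM + 1) scale, was undercut by 1.75% of the genes tested. Abundant genes tend to be measured with less noise, and 95.5% of the genes had a lower mean. The gene (ENSMUSG00000002603) is at chr7:25687002-25705077 (GRCm38, plus strand).

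Tgfb2, a ligand needed for the development of heart, skeleton and other organs, had the largest difference of the 10 genes in the fit of all mice. It measured 20.8, 13.3, 7.53, 12.4 and 7.95 TPM in wild-type replicates 1 to 5 and 6.10, 11.0, 10.2, 3.38 and 3.84 TPM in null replicates 1 to 5. In 3 of 5 null mice the level lay below the lowest wild-type mouse, while null replicates 2 and 3 lay within the wild-type range. The means were 12.4 ± 5.35 and 6.91 ± 3.55 TPM (SD, n = 5), 44.2% lower in null mice. The difference on the log2(TPM + 1) scale was -0.79 (SE 0.333, limma p = 0.0351, adjusted p = 0.395, exact permutation p = 0.0952), and it was -0.60 (limma p = 0.0900) without wild-type replicate 1. Tgfb2 (ENSMUSG00000039239) is at chr1:186622792-186705989 (GRCm38, minus strand).

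Tgfb3, the third ligand, ranged from 4.33 to 10.2 TPM in wild-type mice (median 6.48) and from 3.04 to 7.71 TPM in null mice (median 4.53). Its difference of -0.32 (SE 0.237, limma adjusted p = 0.668) did not exceed the spread between mice and was -0.17 when wild-type replicate 1, which had the highest level, was left out. Tgfb3 (ENSMUSG00000021253) is at chr12:86056745-86079041 (GRCm38, minus strand). Together the 3 ligand genes were made up mostly of Tgfb1, which held 90.2% ± 3.09 of their summed TPM in wild-type and 93.5% ± 2.82 in null mice (SD, n = 5). The share of Tgfb2 was 6.43% ± 2.21 and 3.75% ± 1.88, and that of Tgfb3 3.42% ± 0.883 and 2.77% ± 1.04 (SD, n = 5).

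The receptors gave the 2 smallest p-values of the set. Tgfbr2, the type II receptor that binds ligand and starts the signal, measured 35.2, 38.6, 29.6, 34.6 and 30.0 TPM in wild-type replicates 1 to 5 and 22.6, 28.9, 31.5, 22.9 and 21.4 TPM in null replicates 1 to 5. In 4 of 5 null mice the level lay below every wild-type mouse, with null replicate 3 as the exception. The means were 33.6 ± 3.79 and 25.5 ± 4.46 TPM (SD, n = 5), 24.3% lower in null mice, a difference of -0.40 on the log2(TPM + 1) scale (SE 0.126, limma adjusted p = 0.319) that was -0.38 without wild-type replicate 1. The exact permutation p was 0.0317, where the smallest that 5 against 5 mice can give is 0.00794. Tgfbr2 (ENSMUSG00000032440) is at chr9:116084293-116175360 (GRCm38, minus strand).

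Tgfbr3, or betaglycan, is a co-receptor that presents ligand, Tgfb2 above all, to the type II receptor. It measured 34.5, 17.99, 16.3, 22.2 and 17.1 TPM in wild-type replicates 1 to 5 and 12.9, 14.4, 17.1, 12.9 and 12.9 TPM in null replicates 1 to 5. Again 4 of 5 null mice lay below every wild-type mouse, and null replicate 3 lay among the lower wild-type values. The means were 21.6 ± 7.53 and 14.0 ± 1.83 TPM (SD, n = 5), 35.1% lower in null mice, a difference of -0.54 (SE 0.185, limma p = 0.0129, adjusted p = 0.338, exact permutation p = 0.0159). Without wild-type replicate 1 the wild-type mean was 18.4 ± 2.61 TPM (SD, n = 4) and the difference -0.37, with an unadjusted limma p still under 0.05. Tgfbr3 (ENSMUSG00000029287) is at chr5:107106570-107289629 (GRCm38, minus strand).

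Tgfbr1, the type I receptor kinase that phosphorylates Smad2 and Smad3, is also the gene with the miR-324-3p match shown above. It measured 24.5, 26.5, 18.2, 22.3 and 22.1 TPM in wild-type replicates 1 to 5 and 16.5, 22.3, 22.2, 15.4 and 12.5 TPM in null replicates 1 to 5. The levels of null replicates 2 and 3 lay within the wild-type range and the other 3 below it. The means were 22.7 ± 3.09 and 17.8 ± 4.31 TPM (SD, n = 5), 21.7% lower in null mice, a difference of -0.36 (SE 0.162, limma p = 0.0478, adjusted p = 0.427, exact permutation p = 0.0873). Without wild-type replicate 1 it was -0.33, and the unadjusted p was then above 0.05. It lies on the plus strand of chromosome 4 (ENSMUSG00000007613), from 47353222 to 47414931. The receptors took similar shares of their sum in both genotypes, with Tgfbr2 at 43.4% ± 3.66 and 44.5% ± 0.825 of their summed TPM, Tgfbr1 at 29.3% ± 2.58 and 30.8% ± 2.64 and Tgfbr3 at 27.3% ± 5.68 and 24.7% ± 2.01 in wild-type and null mice (SD, n = 5).

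Of the storage proteins, Ltbp3, a matrix protein that binds latent TGF-beta and is needed for normal bone growth, varied more between mice than Ltbp1. It measured 79.0, 41.0, 28.3, 48.8 and 30.6 TPM in wild-type replicates 1 to 5 and 30.8, 35.4, 51.0, 27.8 and 17.97 TPM in null replicates 1 to 5. The genotypes overlapped broadly, and wild-type replicate 1 lay above the other 9 mice. The means were 45.6 ± 20.4 and 32.6 ± 12.1 TPM (SD, n = 5), a difference of -0.45 (SE 0.299, limma adjusted p = 0.619) that was -0.23 without wild-type replicate 1. Ltbp1, which ties latent complexes to fibrillin and fibronectin fibres, ranged from 21.7 to 36.7 TPM in wild-type mice (median 25.0) and from 18.8 to 27.9 TPM in null mice (median 24.3). Its difference of -0.13 (SE 0.152, limma adjusted p = 0.825) was -0.010 without wild-type replicate 1. Ltbp3 (ENSMUSG00000024940) is at chr19:5740904-5758532 (GRCm38, plus strand), and Ltbp1 (ENSMUSG00000001870) at chr17:75005568-75392512 (plus strand).

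The Smad genes did not differ beyond the spread between mice. Smad3, the transducer, ranged from 9.11 to 16.4 TPM in wild-type mice (median 13.4) and from 9.19 to 13.3 TPM in null mice (median 10.8), a difference of -0.19 (SE 0.163, limma adjusted p = 0.737). Smad7, the feedback inhibitor, ranged from 5.80 to 11.2 TPM in wild-type mice (median 7.04) and from 4.21 to 9.02 TPM in null mice (median 6.45), a difference of -0.20 (SE 0.218, limma adjusted p = 0.806). Without wild-type replicate 1 the differences were -0.12 for Smad3 and -0.079 for Smad7. No null mouse lay below the lowest wild-type mouse for Smad3, and 1 did for Smad7. Smad3 (ENSMUSG00000032402) is at chr9:63646767-63757994 (GRCm38, minus strand), and Smad7 (ENSMUSG00000025880) at chr18:75367529-75395935 (plus strand).

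A ratio of 2 genes within a library does not depend on how libraries are scaled, so 6 ratios were compared. Tgfb2 over Tgfb1 was 0.112, 0.0757, 0.0444, 0.0793 and 0.0488 in wild-type replicates 1 to 5 and 0.0334, 0.0613, 0.0655, 0.0203 and 0.0224 in null replicates 1 to 5. The ratio lay below every wild-type mouse in 3 of 5 null mice, and the difference was -0.92 on the log2 scale (exact permutation p = 0.0873, 0.460 after Benjamini-Hochberg adjustment over the 6 ratios). Tgfb3 over Tgfb1 differed by -0.39 (exact permutation p = 0.230, adjusted 0.460) and Ltbp3 over Ltbp1 by -0.33 (exact permutation p = 0.175, adjusted 0.460). Tgfbr3 over Tgfbr2 differed by -0.16 (exact permutation p = 0.516, adjusted 0.774), and by 0.0023 without wild-type replicate 1. Tgfbr1 over Tgfbr2 differed by 0.034 (exact permutation p = 0.690, adjusted 0.817) and Smad7 over Smad3 by -0.029 (exact permutation p = 0.817, adjusted 0.817). Both estimates changed sign when single mice were left out. None of the 6 ratios passed adjustment, and in each of the 6 the genotypes overlapped.

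Single transcripts showed which annotated form carried each gene. The table lists 55 transcripts of the 10 genes, of which 45 were above 0 in at least 1 mouse and 23 reached a mean of 1 TPM. Tgfb1 was almost wholly its protein-coding transcript Tgfb1-201 of 2175 bases, at 94.1% ± 3.90 of the gene's TPM in wild-type and 94.2% ± 1.88 in null mice (SD, n = 5). Tgfb3 had a single transcript in the table, and Tgfbr3-201 held 99.4% and 100.0% and Smad3-201 91.2% and 96.6% of their genes (wild-type and null mean). Tgfbr1-201 of 5756 bases held 97.1% ± 1.90 and 93.9% ± 1.47 of Tgfbr1, and the shorter protein-coding Tgfbr1-205, which averaged under 1 TPM, held 1.76% ± 1.61 and 5.39% ± 2.06 (SD, n = 5). The exact permutation p of these shares was 0.0159 and 0.0238 without adjustment, the smallest among the 45 transcripts, and the genotypes overlapped in the TPM of both transcripts. Tgfbr2 was split between 2 protein-coding transcripts, Tgfbr2-201 (3476 bases) at 59.9% ± 3.23 and 59.8% ± 2.47 and Tgfbr2-202 (8092 bases) at 40.2% ± 3.23 and 40.2% ± 2.47 in wild-type and null mice (SD, n = 5). Both Tgfbr2 transcripts had lower means in null mice, with differences of -0.39 and -0.38 on the log2(TPM + 1) scale (limma adjusted p over 31817 transcripts = 0.600 and 0.582). Tgfb2-201 of 5116 bases held 70.8% ± 8.41 and 68.6% ± 4.00 of Tgfb2, and the shorter Tgfb2-206 of 3485 bases held 18.4% ± 5.50 and 18.9% ± 9.80 (SD, n = 5). Smad7-201 of 4278 bases held 57.6% ± 7.23 and 50.8% ± 5.41 of Smad7 (SD, n = 5). The processed transcript Smad7-203 of 392 bases was above 0 in 2 mice, both null, at up to 40.1% of the gene. With protein-coding transcripts alone, the difference of Smad7 was -0.36 (SE 0.224, limma adjusted p = 0.527), beside -0.20 for all its transcripts.

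Ltbp3 and Ltbp1 were the genes with large shares outside protein-coding transcripts. For Ltbp3, transcripts annotated as retained intron made up 44.4% (wild-type) and 50.7% (null) of its TPM. A single one, Ltbp3-202 of 2099 bases, measured 43.4, 13.8, 11.0, 22.1 and 11.5 TPM in wild-type replicates 1 to 5 and 14.5, 17.2, 23.5, 12.7 and 8.90 TPM in null replicates 1 to 5. Its share of the gene was 42.1% ± 8.33 and 47.4% ± 1.66, about that of the full protein-coding transcript Ltbp3-201 of 5190 bases at 41.8% ± 4.97 and 39.8% ± 4.91 (SD, n = 5). With protein-coding transcripts alone, the difference of Ltbp3 was -0.57 (SE 0.253, unadjusted limma p under 0.05), beside -0.45 for the sum of all its transcripts. For Ltbp1, 70.4% and 69.0% of the TPM was protein-coding, led by Ltbp1-202 of 4870 bases at 46.2% ± 4.89 and 40.2% ± 5.53, while the longest form measured above the filter, Ltbp1-201 of 6671 bases, held 9.95% ± 3.14 and 12.4% ± 3.73 (SD, n = 5). Of the 23 member transcripts tested, 0 had an adjusted p under 0.05, as did 0 of the 31817 transcripts (0%). An unadjusted p under 0.05 was found for Tgfbr1-201, Tgfbr2-201, Tgfbr2-202 and Tgfbr3-201, against 7.51% of all transcripts. Division of reads between transcripts that share exons is an estimate, which adds an error that the values do not show.

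**Figure D2:**
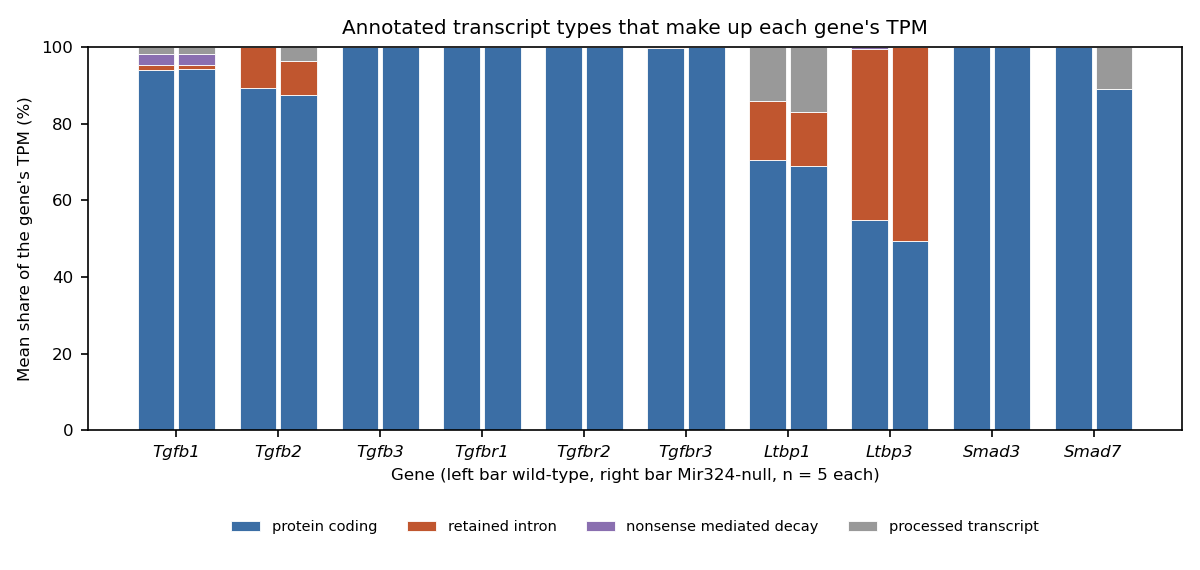
Mean share of each gene's TPM (vertical axis, percent) held by transcripts of each annotated type, in wild-type (left bars) and Mir324-null mice (right bars), n = 5 each. Retained-intron forms are prominent in Ltbp3, at 44.4% and 50.7%, whereas Tgfb3 and Tgfbr2 are protein-coding throughout.

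The 9 genes other than Tgfb1 varied together from mouse to mouse within genotypes. Pearson correlations of log2(TPM + 1) over the 10 mice, after each genotype's mean was subtracted, had a median of 0.837 over the 36 pairs without Tgfb1, with 0.447 as the lowest, and the median was 0.820 without wild-type replicate 1. The highest was Tgfb3 with Ltbp3, at 0.976. Tgfb1 stood outside this group, with correlations between -0.107 and 0.314 over its 9 pairs. Over the 9 mice without wild-type replicate 1, these correlations ran from -0.659, with Tgfbr3, to 0.125, and the lowest of the 36 pairs without Tgfb1 was 0.283. All values of a mouse share a library and its tissue content, so these correlations describe these mice and carry no test.

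The same 9 genes had positive correlations with the marker scores of chondrocytes, osteoblasts, osteoclasts, fibroblasts and endothelial cells. Their correlations were also positive with the adipocyte (0.198 to 0.711), skeletal muscle (0.173 to 0.755) and T and NK scores (0.356 to 0.661). Over 10 mice the pattern was thus not particular to the former scores. Without wild-type replicate 1, these ranges were 0.058 to 0.692, 0.465 to 0.799 and 0.029 to 0.512. The T and NK value of Tgfbr3 fell from 0.552 to 0.029 and that of Ltbp1 from 0.498 to 0.077. The lowest correlation with the former scores was then 0.378. The score of a marker list in a mouse was log2(TPM + 1) averaged over its genes above the TPM filter. The fibroblast score had correlations of 0.947 with Tgfb2, 0.939 with Ltbp3 and 0.929 with Tgfb3, and the chondrocyte score had 0.938 with Tgfbr3 and 0.911 with Ltbp1 (n = 10 mice, genotype means subtracted). The endothelial score had 0.872 with Tgfb2 and 0.760 with Tgfbr1, the highest for that receptor gene. For Smad3 the highest of the 5 correlations with the scores named first was lower than for the other 8 genes, 0.576 with the endothelial score. Its correlation with the erythroid score was -0.721. For Tgfbr3 the correlation with the erythroid score went from -0.594 to -0.112 without wild-type replicate 1. Correlations with the megakaryocyte and platelet score were negative for all 9, from -0.790 for Tgfb3 to -0.541 for Smad3. For Tgfb1 the correlation with that score was 0.221 over 10 mice and 0.651 over the 9 mice without wild-type replicate 1, and its correlation with the chondrocyte score was 0.043 and -0.629. The relation of Tgfb1 to the platelet and chondrocyte scores thus changed when a single mouse was left out. Its highest correlation over 10 mice, with the T and NK score, changed less, at 0.734 and 0.604, as did that with the endothelial score, at 0.459 and 0.378.

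**Figure D3:**
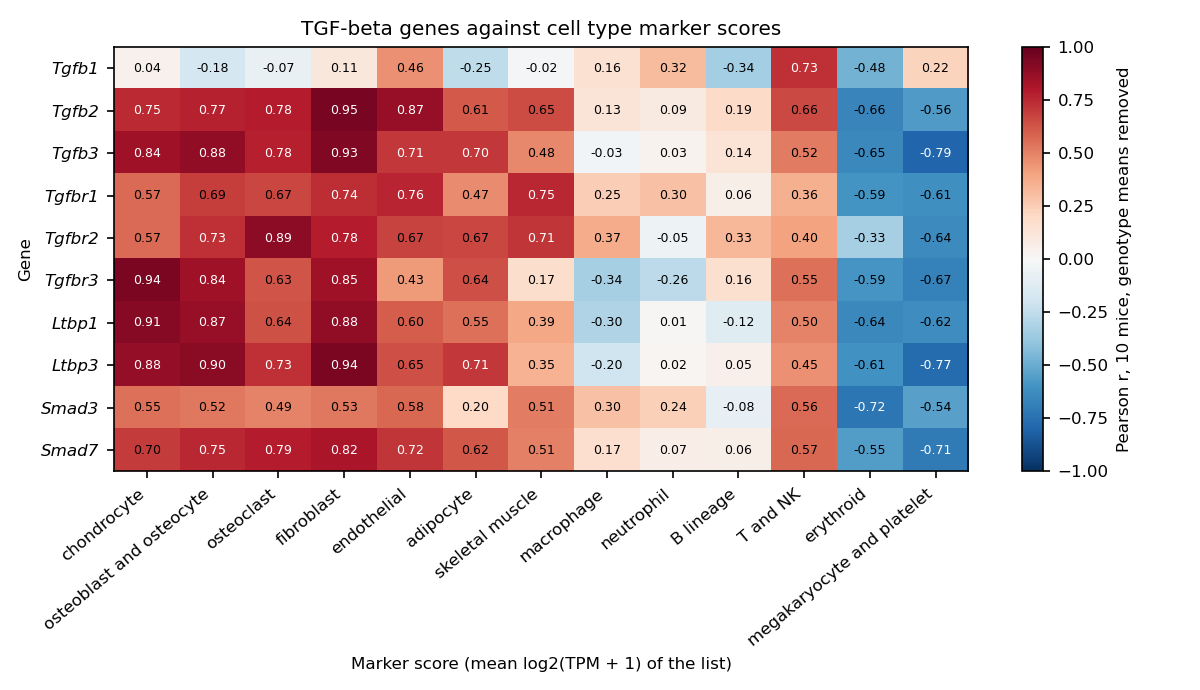
Pearson correlation (colour and printed value, -1 to 1) of log2(TPM + 1) between the 10 genes (rows) and 13 marker scores (columns) over 10 mice with genotype means removed. Rows other than Tgfb1 are positive for chondrocyte, osteoblast, osteoclast, fibroblast, endothelial, adipocyte, skeletal muscle and T and NK scores. The same rows are negative for erythroid and for megakaryocyte and platelet scores, for example 0.939 and -0.771 for Ltbp3 with the fibroblast and the platelet score.

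The levels of these markers are therefore given beside the genotype differences. As a background to the counts that follow, 7.3% of all genes were lower and 4.28% higher in null mice at an unadjusted limma p under 0.05. The 10 osteoblast and osteocyte genes, all of which passed the filter, summed to 6312 to 14820 TPM among wild-type and 3544 to 7319 TPM among null mice, and 9 of the 10 had an unadjusted limma p under 0.05 and lay lower in null mice. The 9 chondrocyte genes summed to 365 to 1070 TPM and 293 to 599 TPM, with 5 of the 6 tested at an unadjusted p under 0.05 and lower. The 6 osteoclast genes summed to 767 to 2227 TPM and 378 to 1280 TPM, with 5 of 5 tested lower at an unadjusted p under 0.05. The 6 fibroblast genes summed to 75.1 to 256 TPM and 94.2 to 293 TPM, with 0 of 6 at an unadjusted p under 0.05 and 1 of 6 with an estimate below 0. Unlike the lists before it, the fibroblast score had the higher mean in null mice, 3.79 ± 0.712 in wild-type and 4.30 ± 0.670 in null mice (SD, n = 5). Null replicates 2 and 3 had the highest fibroblast scores (4.87 and 5.10, wild-type replicate 1 4.77) and the highest skeletal muscle scores (4.22 and 3.19). The 8 megakaryocyte and platelet genes summed to 1179 to 1794 TPM and 1393 to 2866 TPM, with 8 of 8 higher in null mice at an unadjusted p under 0.05. The 7 erythroid genes summed to 112600 to 198800 TPM and 159200 to 263600 TPM, with 4 of 7 higher in null mice at an unadjusted p under 0.05. The 6 adipocyte genes summed to 281 to 468 TPM and 205 to 351 TPM, with 4 of 5 tested lower, the 7 B lineage genes to 357 to 467 TPM and 199 to 423 TPM, with 3 of 7 lower, and the 6 endothelial genes to 103 to 134 TPM and 92.8 to 144 TPM, with 2 of 6 lower, all at an unadjusted p under 0.05. In the macrophage, neutrophil, skeletal muscle and T and NK lists, 0 genes had an unadjusted p under 0.05. Only 2 of the 6 skeletal muscle genes, Tnnt3 and Mylpf, passed the filter, so the skeletal muscle score averages those 2. Over the 13 lists, Matn1, Matn3, Lep, Myh1 and Myh4 were listed at 0 in some mice, and no gene was at 0 in all. When the osteoblast score entered the fit as a covariate, 3 of the 10 genes had an estimate below 0, against 34.3% of all genes. The differences were 0.13 for Tgfb2 (SE 0.341), 0.013 for Tgfbr1 (SE 0.192), -0.11 for Tgfbr2 (SE 0.149) and -0.0099 for Tgfbr3 (SE 0.176). Ltbp3, at 0.53, was the 1 gene of the 10 with an unadjusted p under 0.05 in that fit, against 5.23% of all genes, and the score itself differed between genotypes, at 8.27 ± 0.427 and 7.42 ± 0.449 (SD, n = 5). When the erythroid score did so instead, 4 of the 10 were below 0, against 34.2% of all genes, 0 had an unadjusted p under 0.05, against 8.8%, and Tgfbr2 differed by -0.30 (SE 0.157). The part of cell content in the genotype differences was not tested beyond these fits.

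**Figure D4:**
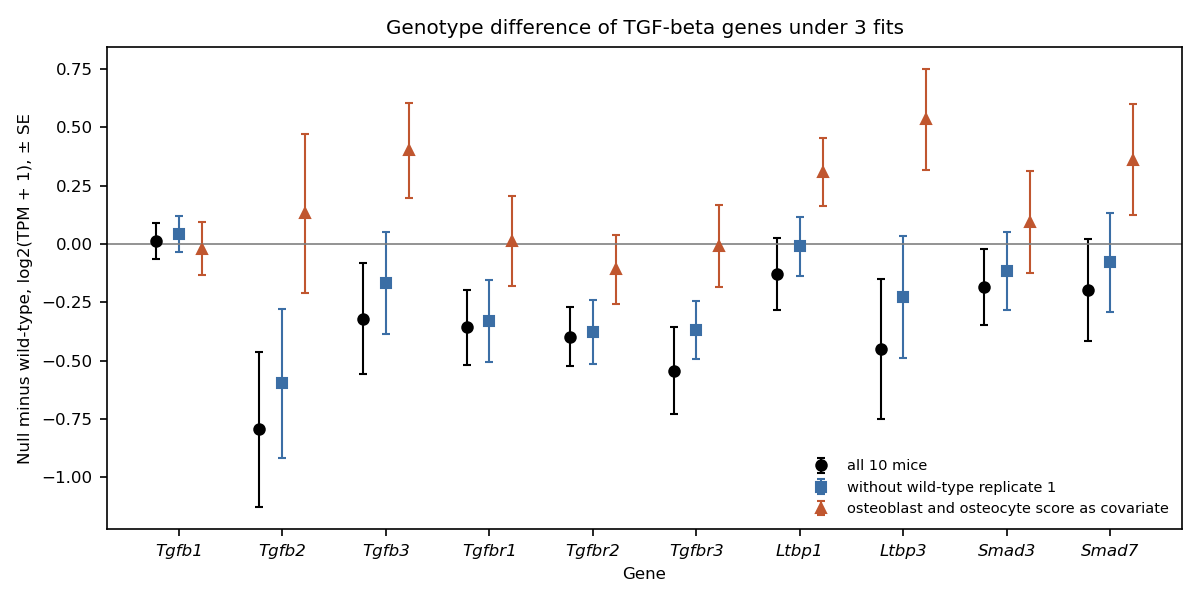
Difference in log2(TPM + 1), Mir324-null minus wild-type (vertical axis), with its standard error, for the 10 genes in the fit of all 10 mice (black circles), without wild-type replicate 1 (blue squares) and with the osteoblast score as covariate (orange triangles). Tgfb2 moves from -0.79 to -0.60 and 0.13, and Tgfbr2 from -0.40 to -0.38 and -0.11.

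In the values below, the wild-type mean comes before the null mean. The rest of the pathway was read from 7 lists with 59 further genes, of which 55 were tested. Of these, 46 had an estimate below 0 and 9 above, against 60% of all genes below 0. The lists were chosen with earlier results of these data known, and values of a mouse share its tissue content. The counts for the lists are therefore a description and carry no test. The median of the 55 was -0.16, beside -0.045 over all genes, and 0 passed adjustment over all genes. At an unadjusted p under 0.05 there were 9 lower and 2 higher, beside 7.3% and 4.28% of all genes. Of the 55, 42 were below 0 after median ratio scaling, 43 after quantile normalization and 38 after rescaling without haemoglobin genes, against 49.3%, 49.2% and 42.8% of all genes. Leaving out wild-type replicate 1, 39 were below 0 (53.9% of all genes), with a median of -0.087, beside -0.016 over all genes. In that fit 4 were lower and 2 higher at an unadjusted p under 0.05, against 8.31% of all genes in either direction. The 4 genes under the filter were Fbn2, Itgb6, Itgb8 and Cdkn2b, with wild-type means of 1.05, 0.446, 0.447 and 0.483 TPM.

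Genes that free latent TGF-beta included the one with the smallest p-value of the 55, Itgav. Of the 10 tested, 8 had an estimate below 0, with a median of -0.28, and 4 were lower and 1 higher at an unadjusted p under 0.05, against 7.3% and 4.28% of all genes, or 2 and 1 without wild-type replicate 1. Itgav, the integrin alpha chain that binds the latency peptide, averaged 38.3 ± 13.4 and 19.0 ± 3.35 TPM (SD, n = 5), a difference of -0.92 (SE 0.213, limma adjusted p = 0.277). Its wild-type mice lay between 24.7 and 58.6 TPM and its null mice between 14.5 and 22.04 TPM, without overlap, as for 1.06% of all genes in that direction (exact permutation p = 0.00794, the smallest possible here). Mmp14, a membrane protease, averaged 64.5 ± 16.7 and 38.7 ± 14.4 TPM (SD, n = 5, difference -0.75, limma adjusted p = 0.319), and Mmp9, the most abundant of the list and a product of neutrophils and osteoclasts, 729 ± 174 and 557 ± 91.2 TPM (SD, n = 5, difference -0.38, limma adjusted p = 0.399). The gene on the higher side, named after its values were seen, was Itgb3, a beta chain of platelets and osteoclasts, at 78.3 ± 7.59 and 101 ± 18.5 TPM (SD, n = 5, difference 0.35, limma adjusted p = 0.350). The platelet markers given above lay higher in null mice too, and the part of platelet RNA in its value was not tested.

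Among 6 further storage genes tested, 3 had estimates below 0 and 3 above, with a median of 0.11, and 2 were below 0 under each of the 3 other scalings. At an unadjusted p under 0.05 there were 1 lower, Fbn1, and 1 higher, Lrrc32 (7.3% and 4.28% of all genes), and 0 without wild-type replicate 1. Fbn1, the fibrillin to which latent complexes attach, averaged 7.30 ± 1.33 and 4.94 ± 1.73 TPM (SD, n = 5, difference -0.52, limma adjusted p = 0.366, exact permutation p = 0.0476). Lrrc32, which holds latent TGF-beta on the surface of platelets and regulatory T cells, averaged 12.6 ± 2.53 and 16.2 ± 1.96 TPM (SD, n = 5, difference 0.35, limma adjusted p = 0.372, exact permutation p = 0.0317). Emilin1, the most abundant of the list and a matrix protein that limits ligand processing, averaged 55.3 ± 16.8 and 51.0 ± 9.38 TPM (SD, n = 5, limma adjusted p = 0.922), but the wild-type mean was 48.5 TPM, below the null mean, without wild-type replicate 1. Of 4 small matrix proteoglycans that bind TGF-beta, 2 had an estimate below 0 and 0 had an unadjusted p under 0.05. Dcn, the most abundant of them, averaged 968 ± 515 and 781 ± 232 TPM, Bgn 579.8 ± 189 and 426 ± 126 TPM and Aspn 4.56 ± 2.55 and 7.57 ± 4.28 TPM (SD, n = 5). Without wild-type replicate 1, the wild-type mean of Dcn was 760.8 TPM, below the null mean, the difference of Bgn went from -0.43 to -0.27, and 1 of the 4 was below 0 and 1 higher at an unadjusted p under 0.05.

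Of 5 co-receptors, 4 had an estimate below 0, with a median of -0.24, and 2 were lower at an unadjusted p under 0.05 (7.3% of all genes), or 1 without wild-type replicate 1. Cd109, a co-receptor that dampens the signal, averaged 18.9 ± 7.82 and 10.2 ± 4.22 TPM (SD, n = 5, difference -0.81, limma adjusted p = 0.349). Bambi, a decoy receptor without a kinase, averaged 9.77 ± 3.18 and 6.22 ± 1.34 TPM (SD, n = 5, difference -0.55, limma adjusted p = 0.358), and Eng, the endothelial co-receptor and the most abundant of the list, 28.0 ± 4.59 and 24.9 ± 2.54 TPM (SD, n = 5, difference -0.16, limma adjusted p = 0.687, or -0.087 without wild-type replicate 1).

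All 6 transducers tested had estimates below 0, with a median of -0.082, but 4, 4 and 3 did under the other scalings in the same order, and 0 had an unadjusted p under 0.05. Smad4, the shared partner, averaged 26.3 ± 4.31 and 24.6 ± 4.41 TPM, Smad2, the other receptor-activated Smad, 21.8 ± 3.60 and 20.2 ± 2.29 TPM, and Zfyve9, which brings Smads to the receptor, 4.57 ± 0.963 and 3.47 ± 0.864 TPM (SD, n = 5). When wild-type replicate 1 was left out, 5 of the 6 were below 0, and the difference went from -0.092 to -0.042 for Smad4 and from -0.097 to -0.15 for Smad2. All 10 inhibitors tested had estimates below 0, with a median of -0.13 (10, 10 and 8 under the other scalings), and 1 of them, Smad6, was lower at an unadjusted p under 0.05 (7.3% of all genes), which 0 of the 10 were without wild-type replicate 1. Smad6, an inhibitor mainly of BMP signals, averaged 6.63 ± 1.79 and 4.34 ± 1.20 TPM (SD, n = 5, difference -0.52, limma adjusted p = 0.358). Pmepa1, a feedback inhibitor induced by the signal, averaged 23.3 ± 8.77 and 15.6 ± 5.73 TPM (SD, n = 5, difference -0.53, limma adjusted p = 0.498), and Ppm1a, a phosphatase and the most abundant of the list, 98.8 ± 11.0 and 94.1 ± 14.4 TPM (SD, n = 5, difference -0.076, or -0.039 without wild-type replicate 1).

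Of 14 genes tested that TGF-beta is known to induce in connective tissue, 13 had an estimate below 0, with a median of -0.34 (12, 13 and 12 under the other scalings), and 1 was lower at an unadjusted p under 0.05 (7.3% of all genes). That gene was Postn, or periostin, a matrix protein of periosteum and other connective tissue, with means of 40.3 ± 18.1 and 17.5 ± 6.92 TPM (SD, n = 5, difference -1.12, limma adjusted p = 0.305, exact permutation p = 0.0317). Prg4, the lubricin of the joint surface and the most abundant of the list, averaged 2902 ± 1492 and 1737 ± 411 TPM (SD, n = 5, difference -0.63, limma adjusted p = 0.449), and its difference was -0.39 without wild-type replicate 1. Without that mouse, 9 of the 14 were below 0, with a median of -0.11. Many of these genes mark the osteoblasts, fibroblasts and surface chondrocytes whose markers are given above, and the part of those cells in the values was not tested.

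For each of the 10 genes, the 3 tested genes with the most similar pattern were found, by Pearson correlation over the 10 mice with genotype means subtracted. Among 13841 genes and 10 mice, high values arise in any search, so they are given as a description. For Tgfbr1 the closest was Bmpr2, a BMP receptor, at 0.984, followed by Ifitm2 (0.964) and Abcc10 (0.961). Tgfbr2 was closest to Pheta1 (0.969), Emp1 (0.963) and Cgnl1 (0.958), and Tgfbr3 to Scube1 (0.997), Ephx1 (0.990) and Sertad4 (0.987). Tgfb3 was closest to Uaca (0.987), Fcor (0.983) and Yap1 (0.982), and Tgfb2 to Rnf215 (0.978), Ly6a (0.975) and Notum (0.974). Ltbp3 was closest to Lrp1 (0.985), a large endocytic receptor, Abi3bp (0.980) and Cul7 (0.979), and Ltbp1 to Prrt1 (0.993), Ift20 (0.977) and Pam (0.973). For Smad7 the closest were Tsr3 (0.973), Kctd13 (0.970) and Nfatc4 (0.969), and for Smad3 Mlycd (0.947), Nub1 (0.944) and Tmem161b (0.944). Tgfb1 had the loosest matches, Iqcb1 (0.938), Myom1 (0.927) and Uba7 (0.903).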

How the data were processed

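The authors deposited a table of TPM values per Ensembl mouse transcript, made with kallisto per the submitters' processing notes, which name the human build GRCh38 although the identifiers are mouse. Versions and index were not given in the sources used here. Each column sums to 1000000 TPM, so depth is unknown and no count model or counting interval was used. Of 116912 transcripts, 115440 matched GENCODE M21 (GRCm38) without version numbers, and TPM was summed per gene. The 1472 unmatched held 0.275% to 0.356% of TPM. Genes whose mean over the mice reached 1 TPM were analysed as log2(TPM + 1) with limma 3.58.1 in R 4.3.3 (trend on mean expression, no covariate, two-sided, Benjamini-Hochberg, threshold 0.05), tested on simulated data. Single values were compared with two-sided exact permutation tests of 5 against 5 mice (Python 3.11.15, numpy 2.4.6, pandas 2.3.3, scipy 1.17.1; figures with matplotlib 3.10.9). Each mouse is 1 replicate.

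The members and gene lists were chosen with earlier results of these data known. Named further genes are the 2 with the smallest unadjusted p and the most abundant of each pathway list, and the 3 genes most like each member. A gene that this rule names is not reported here. Alternatives were 2 other pseudocounts, 2 other filters, 3 scalings, 2 marker covariates, protein-coding transcripts alone, limma without the trend, a replicate block and leaving out each mouse. Sequences came from RefSeq (miRNAs) and GENCODE transcripts (3′ UTRs).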

Additional observations from a re-analysis of the deposited data

How the results depend on the processing

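In each of the 22 alternatives, 0 of the 10 TGF-beta genes passed adjustment in limma (their smallest adjusted p was 0.167 to 0.930 over the alternatives), and 0 of the 6 ratios did in 13 alternatives. Over all genes tested, the count of 0 became 1 with the osteoblast covariate and lay between 0 and 1 when single mice were left out. For transcripts it was 1 with a pseudocount of 0.1 and between 0 and 5 when single mice were left out. No pairing by replicate number was seen, as deviations of same-numbered mice correlated between -0.144 and 0.0564 and 0 of 10 libraries correlated best with their own number. These values cannot exclude a pairing, for example by litter, which was not given. With the replicate number as a block, 0 genes passed and 3 of the 10 had an unadjusted p under 0.05, beside 1168 of 13841 genes. Of the 10, 2 were under 0.05 without wild-type replicate 1, 2 or 4 or Mir324-null replicate 1, 4 or 5. Of all genes, 1109 to 1402 were under 0.05 in those fits. Tgfbr2 and Tgfbr3 were under 0.05 in 20 of 22 alternatives each, but not with the osteoblast or the erythroid covariate. Tgfb2 was in 14, Tgfbr1 in 9, Ltbp3 in 2 and Tgfb1, Tgfb3, Ltbp1, Smad3 and Smad7 in 0. The alternatives reuse the same mice, so these counts are not independent checks. With the erythroid covariate the estimates of Tgfb3 (0.067), Ltbp1 (0.11), Ltbp3 (0.034), Smad3 (0.094) and Smad7 (0.10) were above 0. With the osteoblast covariate those of Tgfb2 (0.13), Tgfb3 (0.40), Tgfbr1 (0.013), Ltbp1 (0.31), Ltbp3 (0.53), Smad3 (0.092) and Smad7 (0.36) were above 0 and that of Tgfb1 (-0.020) below; the cause was not tested. When single mice were left out, Tgfb1 lay between -0.018 and 0.044, and the log2 ratio of Tgfbr3 to Tgfbr2 between -0.27 and 0.0023, of Tgfbr1 to Tgfbr2 between -0.0068 and 0.092 and of Smad7 to Smad3 between -0.15 and 0.064. With TPM alone, sampling error of low genes such as Tgfb3 is unknown.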
